A study of Xenopus laevis with 12 samples.

Results

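Bone morphogenetic protein (BMP) ligands and the proteins that restrain them were followed in whole Xenopus laevis embryos in which fam46a had been targeted with antisense oligonucleotides. The members are the probe sets annotated to bmp2, bmp4, bmp7, admp, chrd, nog, fst, szl, bambi or cer1, in any .L, .S or numbered copy, where .L and .S mark the paired copies on the long and short subgenomes. All 10 of these genes are on the array, with 26 of the 32539 probe sets tested. Of the 26, 22 are annotated to 1 gene, which gives 17 symbols, and 4 are annotated to both copies of bmp2, bmp4, szl or bambi. Members of 1 gene share their transcript, so they are not separate observations.

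Each of the 12 arrays held RNA of whole embryos at stage 8, a blastula stage, or stage 10.5, when gastrulation has begun. The injections were Fam46a-MO1 at 10 ng per cell (MO1), Fam46a-MO2 together with Fam46a-MO3 at 7 ng each per cell (MO2+MO3), and the control oligonucleotide CoMO at 10 ng per cell, with 2 biological replicates of each injection at each stage. All embryos, controls included, came from in vitro fertilization, were injected at the animal pole of every blastomere of the 4-cell embryo and were kept at 22 °C. Whether each oligonucleotide acts on translation or on splicing is not given in the labels, and the MO2+MO3 embryos received 2 oligonucleotides against 1 in the other groups. Nothing in the labels says that replicates came from separate parents, so p-values rest on the spread within these samples, as set out below.

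BMPs are secreted signals of the TGF-beta superfamily that bind receptor serine/threonine kinases and act through Smad1, Smad5 and Smad9. In the frog gastrula, BMP signalling is high on the ventral side, where it favours epidermis and ventral mesoderm, and is held low dorsally by antagonists secreted from the Spemann organizer. Chordin, noggin and follistatin bind the ligands outside the cell, cerberus binds Nodal, Wnt and BMP proteins, sizzled inhibits the proteases that cleave chordin, and bambi is a membrane pseudoreceptor rather than a secreted protein. ADMP is a BMP-type ligand made on the dorsal side.

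Values are centred log2 values: within a stage the median of the 6 arrays of a probe set is 0. They carry no level of their own, so arrays are comparable within a stage and for 1 probe set only. Differences were tested with limma over all probe sets, and called differences are those with an adjusted p under 0.05 (Benjamini-Hochberg). Same-numbered arrays of a stage deviated together, and calls depended heavily on whether the replicate number entered the fit as a block, so adjusted p-values from both fits stand beside the differences called. Unless stated otherwise, an error after ± is limma's standard error of the log2 difference with the block, from 2 arrays per group.

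The targeted gene, listed as tent5a.L, has 2 probe sets. At stage 10.5 they lay between -0.13 and -0.02 in MO1 embryos and between 0.02 and 0.38 in MO2+MO3 embryos, against -0.43 to 0.14 in CoMO embryos. Its log2 differences lay between -0.37 and 0.39, and the lowest adjusted p was 0.171 with the block and 0.839 without it (limma). An oligonucleotide that blocks translation need not lower the RNA, so these values do not check the labels. Array medians lay between -0.01 and 0.01.

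At stage 10.5 ligands and antagonists differed from CoMO under both reagents in the fit with the replicate block, an alternative to the planned fit. MO1 embryos had lower cer1.S, admp.S, admp2.L, chrd.1.S, bmp4.L and bmp7.2.L signals and higher bambi. MO2+MO3 embryos had higher bmp2 from both copies, with lower bmp4, bmp7.1.L, admp2.L, cer1.S and bambi.L. Not every probe set was called for admp2.L under either reagent, or for bmp4 and cer1.S in MO2+MO3 embryos. In MO1 embryos only the cer1.S calls held whichever array was left out. In MO2+MO3 embryos only those of bmp2.S, admp2.L and cer1.S did. These statements rest on the fit with the replicate block, in which 10 of the 26 members were called in MO1 against CoMO, 2 higher and 8 lower, against 16.2% of all probe sets (8.48% higher and 7.75% lower). In MO2+MO3 against CoMO, 10 of 26 were called, 4 higher and 6 lower, against 16.8% of all probe sets (9.02% higher and 7.77% lower). In the planned fit, which has no block, 0 of 26 were called by limma in either comparison. Of all probe sets, 0.916% were called in it for MO1 and 0.907% for MO2+MO3. At an unadjusted p under 0.05, 11 and 15 members passed with the block in these comparisons, and 5 and 7 without it. Over all probe sets, 29.0% and 29.5% passed that threshold with the block, and 10.9% and 11.4% without it. The median log2 difference of the members was -0.31 for MO1 and -0.27 for MO2+MO3, beside 0.02 and 0.003 over all probe sets. Both comparisons use the same CoMO arrays.

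**Figure D1:**
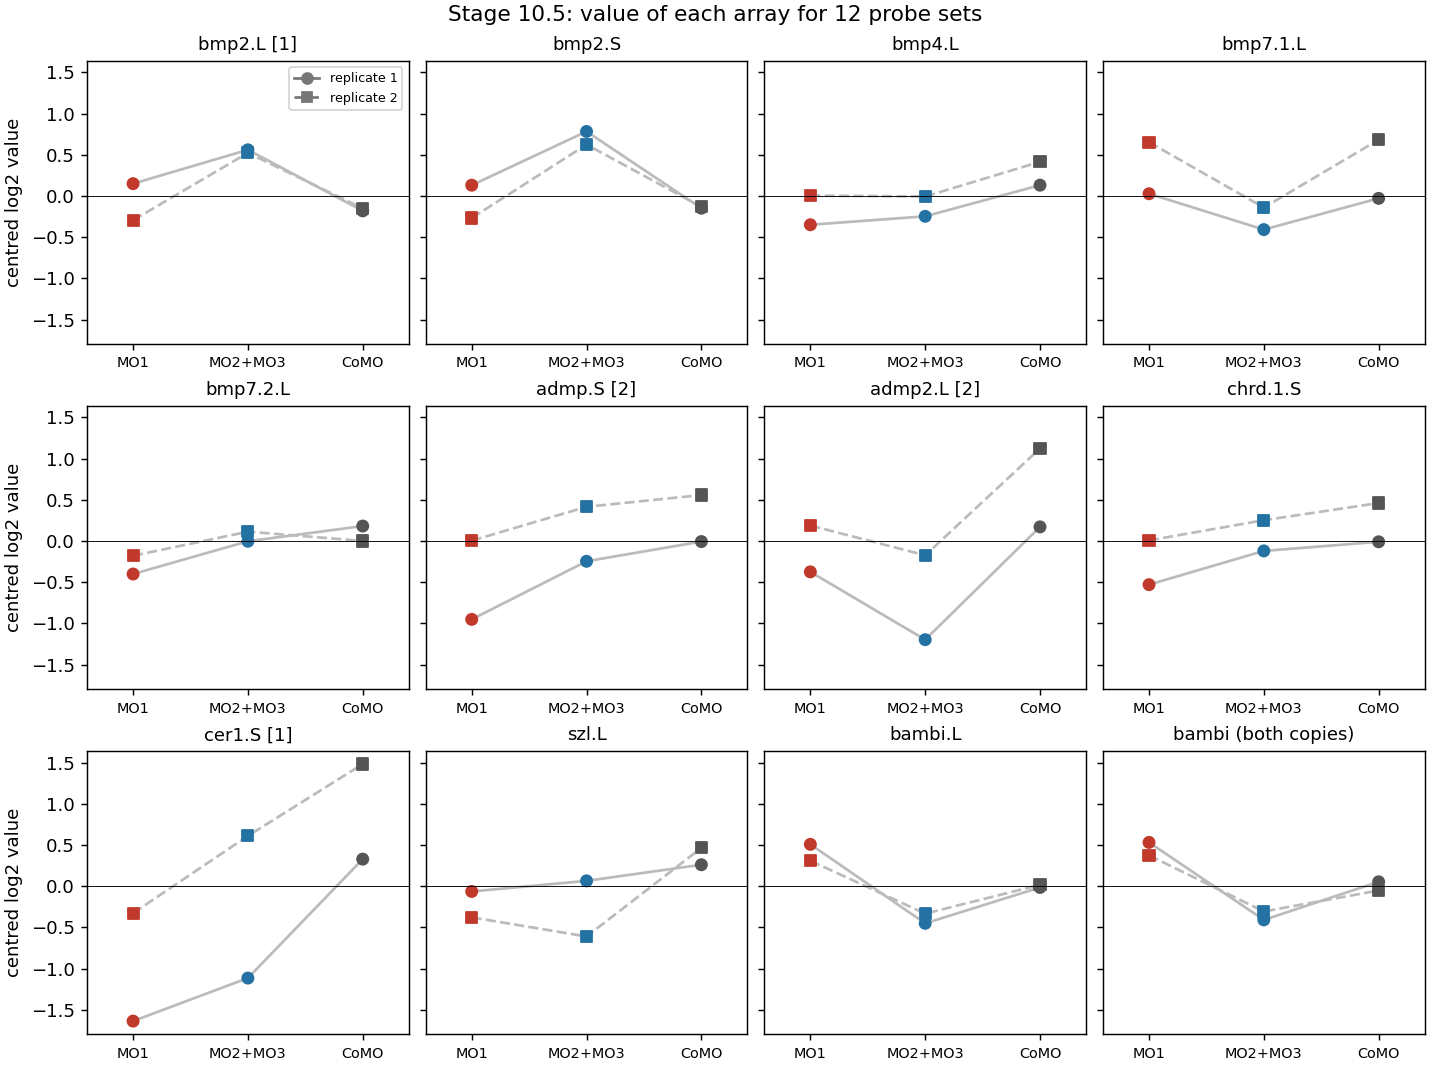
Centred log2 value of each array at stage 10.5 for 12 member probe sets, with circles and solid lines for replicate 1, squares and dashed lines for replicate 2, and the injections on the horizontal axis (MO1 red, MO2+MO3 blue, CoMO grey). Replicate 2 of cer1.S lies above replicate 1 under each injection, while the replicates of both bambi panels lie within 0.20 of each other.

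The ligand bmp2 is among the BMP RNAs that the frog egg holds before zygotic transcription. The bmp2.S probe set (gene 378780) read 0.78 and 0.62 in MO2+MO3 embryos and 0.13 and -0.27 in MO1 embryos, against -0.15 and -0.13 in CoMO embryos. Both MO2+MO3 arrays lay above all the other arrays of the stage, and the MO1 arrays lay on either side of the CoMO arrays. The difference of MO2+MO3 from CoMO was 0.84 ± 0.12, with adjusted p = 0.00329 with the block and 0.132 without it (limma). That of MO1 from CoMO was 0.07 ± 0.12, with a 95% interval from -0.21 to 0.36.

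The other copy behaved alike in direction. The first bmp2.L probe set (gene 397873, Xl2.1140.2.S1_at) read 0.56 and 0.52 in MO2+MO3 embryos and 0.15 and -0.29 in MO1 embryos, against -0.18 and -0.15 in CoMO embryos. The MO2+MO3 arrays again lay above all the others. The difference of MO2+MO3 from CoMO was 0.71 ± 0.13 (limma adjusted p = 0.0073 with the block and 0.132 without). The second bmp2.L probe set, which may cross-hybridise, gave 0.65 ± 0.14 (adjusted p = 0.0158 and 0.203), and the probe set annotated to both copies gave 0.53 ± 0.14 (0.031 and 0.327), in the same order of fits. Leaving out 1 array, the blocked call of bmp2.S held in 12 of 12 fits, with a highest adjusted p of 0.0389. That of the first bmp2.L probe set was lost without CoMO replicate 1 or MO2+MO3 replicate 2 of stage 10.5, with an adjusted p of up to 0.0781. The second bmp2.L probe set and the one for both copies were lost without either of the MO2+MO3 arrays or without CoMO replicate 1, with adjusted p up to 0.148 and 0.258. The one for both copies was also lost when only stage 10.5 was fitted (0.0642).

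The reagents also differed from each other in bmp2. MO1 minus MO2+MO3 was -0.77 ± 0.12 for bmp2.S (limma adjusted p = 0.00733 with the block and 0.224 without) and -0.61 ± 0.13 for the first bmp2.L probe set (0.0192 and 0.256). These calls were lost without MO1 replicate 2 or either of the MO2+MO3 arrays of stage 10.5, with adjusted p up to 0.0948 for bmp2.S and 0.19 for bmp2.L.

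The ligand bmp4, a main ventral BMP of the gastrula, was lower on its bmp4.L probe set under both reagents in the fit with the block. The bmp4.L probe set (gene 397874, Xl2.4619.1.S1_x_at) may cross-hybridise. It read -0.35 and 0.01 in MO1 embryos and -0.25 and -0.01 in MO2+MO3 embryos, against 0.13 and 0.42 in CoMO embryos. Both CoMO arrays lay above the arrays of both reagents. The difference was -0.45 ± 0.09 for MO1 (limma adjusted p = 0.0131 with the block and 0.383 without) and -0.40 ± 0.09 for MO2+MO3 (0.0197 and 0.441). Each of these calls was lost without any 1 of the 4 arrays of its comparison, with adjusted p up to 0.124 and 0.149.

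Of the bmp4.S probe sets (gene 399322), the first (Xl2.10632.1.A1_at) read -0.13 and 0.23 in MO1 embryos and -0.27 and -0.09 in MO2+MO3 embryos, against 0.09 and 0.64 in CoMO embryos. The MO2+MO3 arrays lay below the CoMO arrays, and the MO1 arrays overlapped them. The difference of MO2+MO3 from CoMO was -0.54 ± 0.14 (limma adjusted p = 0.0334 with the block and 0.576 without), a call that held in 4 of 12 fits with 1 array left out. It was lost without any 1 of the 6 arrays of stage 10.5 or either CoMO array of stage 8, with an adjusted p of up to 0.256. The second bmp4.S probe set gave -0.60 ± 0.19 (0.0641 with the block) and the one for both copies -0.54 ± 0.17 (0.0672), so neither was called. Their errors pool the spread of both stages. In MO2+MO3 embryos of stage 8 they read 0.54 and -0.68, and 0.24 and -0.53. For MO1 these 3 probe sets gave -0.31, -0.40 and -0.31, with blocked adjusted p of 0.182, 0.208 and 0.292.

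The bmp7 copies, whose products pair with BMP2 or BMP4 in heterodimers, were each called under 1 reagent. The bmp7.1.L probe set (gene 380560) read -0.41 and -0.14 in MO2+MO3 embryos and 0.03 and 0.65 in MO1 embryos, against -0.03 and 0.68 in CoMO embryos. The MO2+MO3 arrays were the lowest of the stage, and the MO1 and CoMO arrays lay close together within each replicate. MO2+MO3 minus CoMO was -0.60 ± 0.11 (limma adjusted p = 0.00865 with the block and 0.443 without), and MO1 minus CoMO was 0.01 ± 0.11. MO1 minus MO2+MO3 was 0.61 ± 0.11 (0.0119 and 0.594). The call against CoMO was lost without replicate 2 of CoMO or of MO2+MO3 at stage 10.5, with an adjusted p of up to 0.0851. The call between the reagents was lost without either MO1 array or MO2+MO3 replicate 2, with an adjusted p of up to 0.132.

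The bmp7.2.L probe set (gene 379625) read -0.40 and -0.18 in MO1 embryos and -0.00 and 0.11 in MO2+MO3 embryos, against 0.18 and 0.00 in CoMO embryos. Only the MO1 arrays stood apart, below the other 4. For MO1 the difference from CoMO was -0.38 ± 0.10 (limma adjusted p = 0.0398 with the block and 0.288 without). This call held in 1 of 12 fits with 1 array left out, the one without CoMO replicate 2 of stage 10.5, with an adjusted p of up to 0.327 in the others. It was also lost when only the 6 arrays of stage 10.5 were fitted (0.0859).

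The dorsal ligand admp.S (gene 398053) has 2 probe sets. The first (Xl2.340.1.S1_at) read -0.84 and -0.09 in MO1 embryos and -0.11 and 0.33 in MO2+MO3 embryos, against 0.09 and 0.16 in CoMO embryos. The second (Xl2.54084.1.A1_at) read -0.95 and 0.01 in MO1 embryos and -0.24 and 0.42 in MO2+MO3 embryos, against -0.01 and 0.56 in CoMO embryos. On both, MO1 was the lowest injection of each replicate, and replicate 1 of MO1 lay far below the other arrays. MO1 minus CoMO was -0.59 ± 0.14 and -0.75 ± 0.12, with limma adjusted p of 0.0262 and 0.00408 with the block and of 0.656 and 0.551 without it. MO2+MO3 minus CoMO was -0.01 ± 0.14 and -0.19 ± 0.12, and neither was called. MO1 minus MO2+MO3 was -0.57 ± 0.14 and -0.56 ± 0.12, with adjusted p of 0.041 and 0.0209 with the block and of 0.863 and 0.928 without it. Without MO1 replicate 1 of stage 10.5 the difference of MO1 from CoMO fell short of a call on both, with adjusted p up to 0.249 and 0.0528, and that of the first was also lost without CoMO replicate 1. Fitted to the 6 arrays of stage 10.5 alone with the block, the first was not called for MO1 against CoMO (0.0644) or MO1 against MO2+MO3 (0.0947). Between the reagents, the second was lost without MO1 replicate 1 or either of the MO2+MO3 arrays of stage 10.5 (up to 0.19). The first held in 3 of 12 such fits, namely those without MO1 replicate 2 or either CoMO array of stage 10.5, with an adjusted p of up to 0.32 in the others.

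The related ligand admp2.L (gene 100036830) has 2 probe sets that disagree. The second (Xl2.16425.2.S1_at) read -1.20 and -0.17 in MO2+MO3 embryos and -0.37 and 0.19 in MO1 embryos, against 0.17 and 1.12 in CoMO embryos. Within each replicate the order was MO2+MO3, MO1 and CoMO, from low to high. MO2+MO3 minus CoMO was -1.33 ± 0.13 (limma adjusted p = 0.000615 with the block and 0.209 without), and the blocked call held in 12 of 12 fits with 1 array left out. For MO1 it was -0.74 ± 0.13 (0.00675 and 0.594), lost without replicate 2 of MO1 or CoMO at stage 10.5 (up to 0.0714). MO1 minus MO2+MO3 was 0.59 ± 0.13 (0.0254 and 0.926), lost without MO1 replicate 1 or either of the MO2+MO3 arrays (up to 0.218). The first admp2.L probe set gave 0.01 ± 0.14 for MO1 and -0.06 ± 0.14 for MO2+MO3, and its lowest array had a log2 level below 4, where the negative controls also lay.

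**Figure D2:**
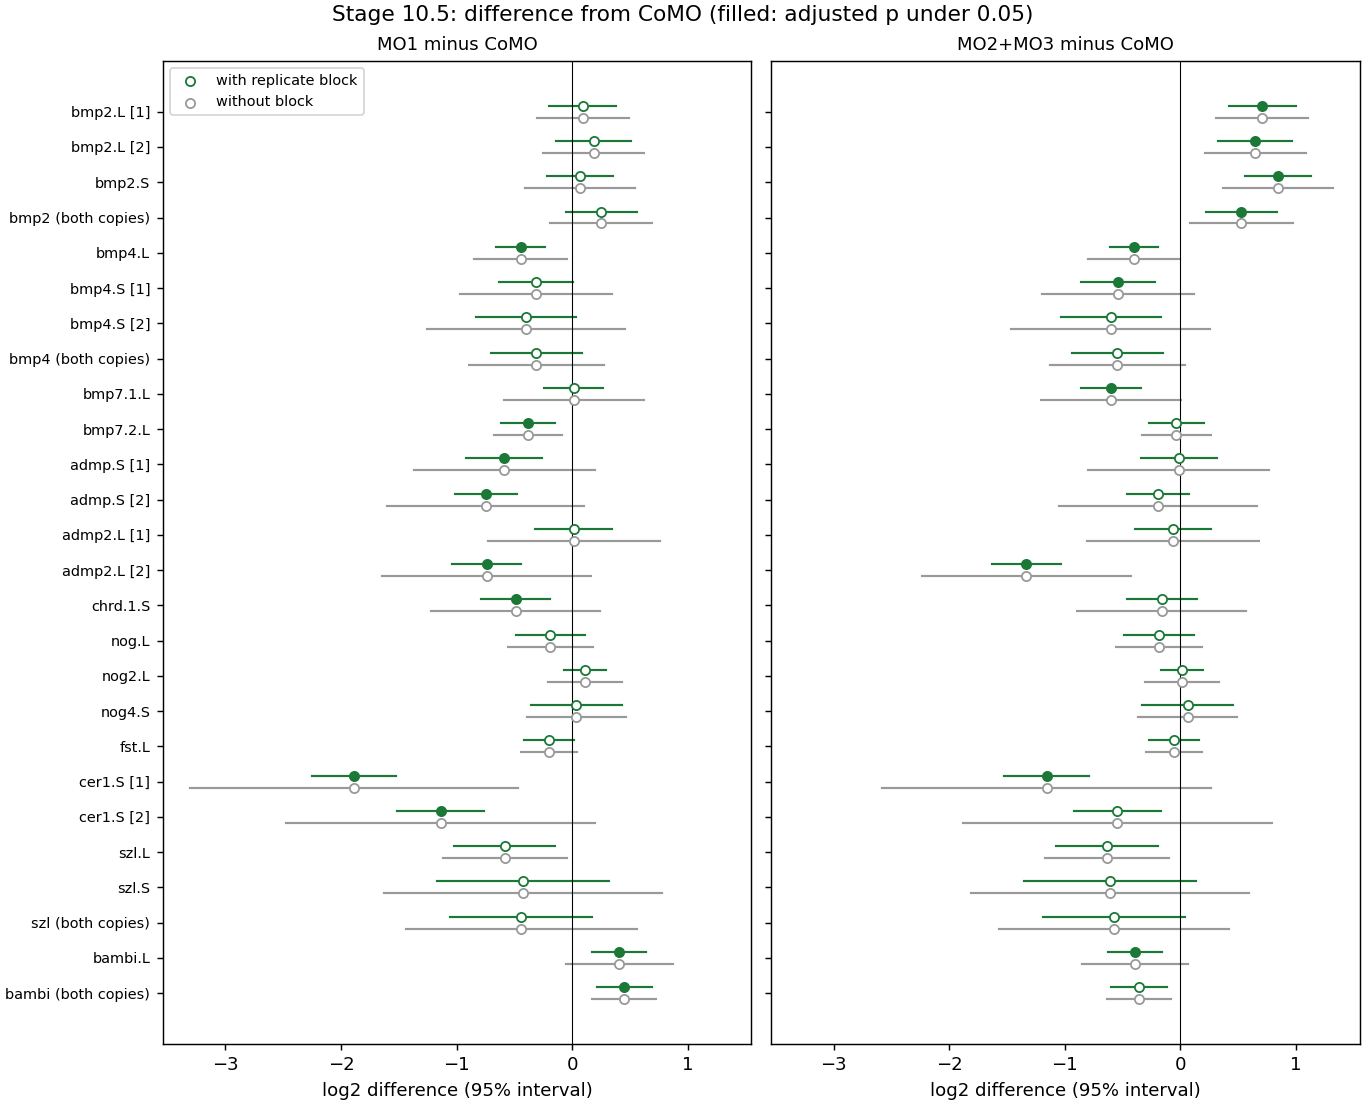
Log2 differences of MO1 (left) and MO2+MO3 (right) from CoMO at stage 10.5 for the 26 member probe sets, each with its 95% interval from limma, with the replicate block in green and without it in grey. Points are the same in both fits and filled where called. The intervals of both cer1.S probe sets shorten most with the block, and those of bmp2 lie above 0 for MO2+MO3 in both fits.

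Among the antagonists, cerberus (cer1.S) was lower in MO1 embryos on both probe sets in the fit with the block. The first cer1.S probe set (gene 398060, Xl2.33990.1.S1_at) read -1.64 and -0.33 in MO1 embryos and -1.12 and 0.61 in MO2+MO3 embryos, against 0.33 and 1.48 in CoMO embryos. Both MO1 arrays lay below both CoMO arrays, and the MO2+MO3 arrays overlapped them across replicates but lay below CoMO within each replicate. MO1 minus CoMO was -1.89 ± 0.16, with limma adjusted p = 0.000333 with the block and 0.272 without, where the standard error was 0.62. The lowest MO1 array had a level between 2 and 4, where the negative controls also lay, so the size of this difference is uncertain. MO2+MO3 minus CoMO was -1.16 ± 0.16 (0.00249 and 0.581). Both blocked calls held in 12 of 12 fits with 1 array left out, with adjusted p up to 0.00667 and 0.0302. Fitted to stage 10.5 alone with the block, limma gave adjusted p of 0.00296 and 0.00881. Without the block, the MO1 difference was -1.23 when MO1 replicate 1 was left out and -2.54 when MO1 replicate 2 was, and the MO2+MO3 difference was -0.30 without MO2+MO3 replicate 1 and -2.02 without replicate 2.

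The second cer1.S probe set (Xl2.368.1.S1_at) read -1.61 and 0.06 in MO1 embryos and -0.87 and 0.50 in MO2+MO3 embryos, against -0.06 and 0.79 in CoMO embryos. The injections overlapped across replicates, and within each replicate the order was MO1, MO2+MO3 and CoMO, from low to high. For MO1 the difference from CoMO was -1.14 ± 0.16 (limma adjusted p = 0.0029 with the block and 0.568 without), and the blocked call held in 12 of 12 fits with 1 array left out. This difference was smaller than on the first probe set, and the lowest array here had a recovered level of 8 or above. Without the block the size depended on the array, with -1.97 when MO1 replicate 2 was left out and -0.30 when MO1 replicate 1 was. MO2+MO3 minus CoMO was -0.55 ± 0.16 and missed the threshold with the block (0.0553). Between the reagents, the first probe set differed by -0.73 ± 0.16 (0.0252 with the block and 1.0 without) and the second by -0.59 ± 0.16 (0.0609 with the block). The difference of the first was lost without either MO1 array or MO2+MO3 replicate 2 of stage 10.5 (up to 0.212), and without a block it turned to 0.13 when MO2+MO3 replicate 2 was left out.

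The replicates of 1 injection also lay far apart in cer1.S. Averaged over the 3 injections, replicate 2 minus replicate 1 at stage 10.5 was 1.40 on the first probe set and 1.30 on the second, and 1.4% and 1.69% of all probe sets had a larger replicate difference. It was 0.85 and 0.67 for the admp2.L probe sets, 0.73 and 0.42 for those of admp.S, 0.53 for bmp7.1.L and 0.46 for chrd.1.S. For bambi.L it was -0.02. What the replicate numbers share is not stated, and its part in these results was not tested. In whole embryos, fewer cells of a type and less RNA per cell cannot be told apart.

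Chordin, the organizer antagonist that binds BMP4 directly, was measured by 1 chrd.1.S probe set (gene 398045). It read -0.53 and 0.01 in MO1 embryos and -0.12 and 0.25 in MO2+MO3 embryos, against -0.01 and 0.46 in CoMO embryos. The groups overlapped, and MO1 was the lowest injection of each replicate. The difference of MO1 from CoMO was -0.49 ± 0.13 (limma adjusted p = 0.038 with the block and 0.727 without), a call held in 4 of 12 fits with 1 array left out. It was lost without any 1 of the 6 arrays of stage 10.5 or either of the MO2+MO3 arrays of stage 8 (up to 0.239). MO2+MO3 minus CoMO was -0.16 ± 0.13, with a 95% interval from -0.46 to 0.14.

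Noggin, its relatives and follistatin were not called. The nog.L probe set (gene 373646) gave -0.19 ± 0.13 for MO1 and -0.19 ± 0.13 for MO2+MO3, with 1 CoMO array at 0.43 and the other 5 arrays between -0.07 and 0.07. The fst.L probe set (gene 399282) gave -0.20 ± 0.10 for MO1, with a 95% interval from -0.42 to 0.02, and -0.06 ± 0.10 for MO2+MO3. The nog2.L and nog4.S probe sets differed from CoMO by at most 0.11 under either reagent, and their lowest arrays had levels below 4 at stage 10.5.

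Sizzled, a secreted inhibitor of chordin-cleaving proteases that is made on the ventral side, read lower under both reagents without being called. The szl.L probe set (gene 398164) read -0.06 and -0.38 in MO1 embryos and 0.06 and -0.61 in MO2+MO3 embryos, against 0.26 and 0.46 in CoMO embryos. Both CoMO arrays lay above all 4 others, as they did on the szl.S probe set and on the one for both copies. MO1 minus CoMO was -0.58 ± 0.19 and MO2+MO3 minus CoMO was -0.64 ± 0.19, with blocked adjusted p of 0.0757 and 0.0556 (limma). The other szl probe sets gave -0.43 and -0.44 for MO1 and -0.61 and -0.57 for MO2+MO3, with standard errors of 0.33 and 0.27. These errors pool the spread of both stages. In MO2+MO3 embryos of stage 8, szl.S read 1.17 and -0.71 and the probe set for both copies 1.02 and -0.50. The lowest szl.S array of stage 8 had a level below 4.

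Bambi, the pseudoreceptor that damps BMP signalling and is made where BMP4 is active, read on opposite sides of CoMO under the 2 reagents. Its differences from CoMO were not called without the block. The probe set for both copies (Xl2.25777.1.S1_s_at) read 0.53 and 0.37 in MO1 embryos and -0.41 and -0.31 in MO2+MO3 embryos, against 0.05 and -0.05 in CoMO embryos. The bambi.L probe set (gene 394401) read 0.51 and 0.31 in MO1 embryos and -0.45 and -0.33 in MO2+MO3 embryos, against -0.02 and 0.02 in CoMO embryos. No injection overlapped another on either probe set, with MO1 highest and MO2+MO3 lowest. MO1 minus MO2+MO3 was 0.81 ± 0.11 and 0.80 ± 0.10.

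For the probe set of both copies this was the only member difference called without the block in any of the 8 contrasts (limma adjusted p = 0.0356, and 0.00307 with the block). For bambi.L the adjusted p was 0.185 without the block and 0.00276 with it. With the block both were called in 12 of 12 fits with 1 array left out. Without it, the call for both copies was lost in all 12, whichever array was left out, with adjusted p from 0.0541 to 0.219. In MO1 against CoMO, bambi was higher by 0.45 ± 0.11 on the probe set for both copies and by 0.41 ± 0.10 on bambi.L, with adjusted p of 0.0218 and 0.0281 with the block and of 0.16 and 0.544 without it. The first of these was lost without any 1 of its 4 arrays (up to 0.19). The second was lost without MO1 replicate 1 or either CoMO array (up to 0.264), and when only stage 10.5 was fitted (0.053). In MO2+MO3 against CoMO, bambi.L gave -0.39 ± 0.10 (0.032 with the block and 0.55 without), lost without any 1 of its 4 arrays (up to 0.243) and when only stage 10.5 was fitted (0.0576). The probe set for both copies gave -0.36 ± 0.11 and was not called (0.0508).

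Over the members, MO1 against MO2+MO3 at stage 10.5 gave 9 calls with the block, 4 higher and 5 lower in MO1, against 9.75% of all probe sets (4.36% higher and 5.38% lower). The higher ones were both bambi probe sets, bmp7.1.L and the second admp2.L probe set. The lower ones were bmp2.S, the first bmp2.L probe set, both admp.S probe sets and the first cer1.S probe set. Without the block 1 of 26 was called, against 0.55% of all probe sets.

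Some blocked differences of stage 10.5 also shrank by over 1.5 times when 1 array was left out. For MO1 against CoMO, the first admp.S probe set gave -0.32 without CoMO replicate 1 and -0.34 without MO1 replicate 1, bambi.L gave 0.27 without MO1 replicate 1, and bmp7.2.L gave -0.21 without CoMO replicate 1. For MO2+MO3 against CoMO, the bmp2 probe set for both copies gave 0.35 without CoMO replicate 1, and bmp7.1.L gave -0.40 without MO2+MO3 replicate 2. For MO1 against MO2+MO3, the first admp.S probe set gave -0.32 and the second admp2.L probe set 0.38 without MO1 replicate 1, the first bmp2.L probe set gave -0.39 without MO1 replicate 2, and the first cer1.S probe set gave -0.48 without MO2+MO3 replicate 2.

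**Figure D3:**
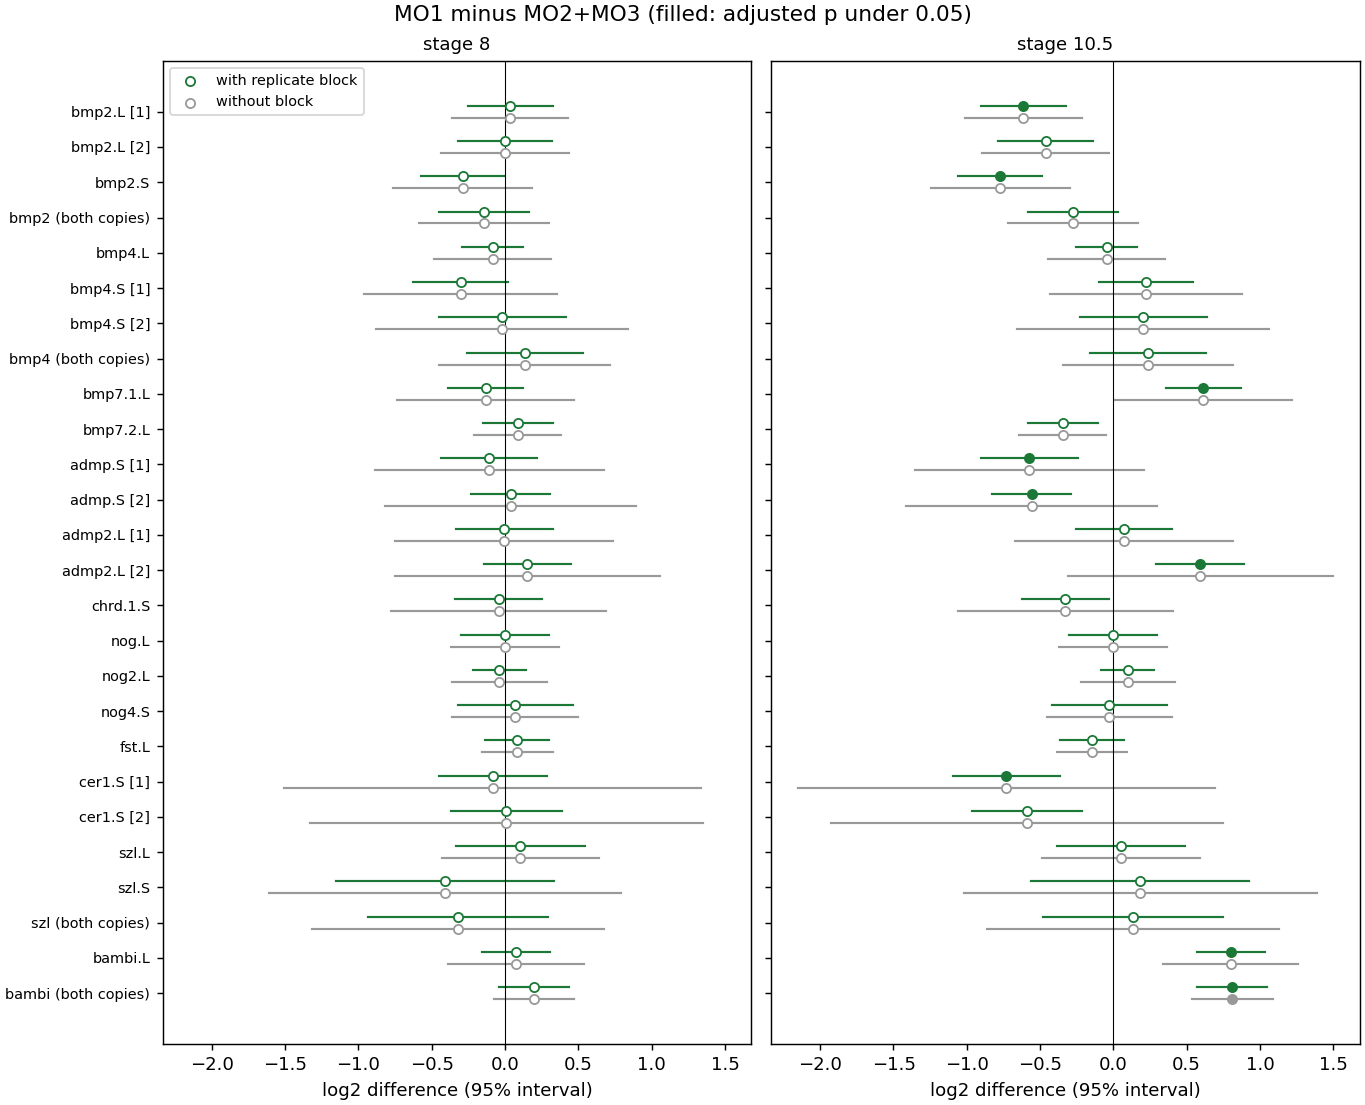
Log2 difference of MO1 minus MO2+MO3 for the 26 member probe sets at stage 8 (left) and stage 10.5 (right), with 95% intervals from limma, with the block in green and without it in grey, and called differences filled. At stage 10.5 bambi lies near 0.8 on the MO1 side and bmp2.S near -0.77 on the MO2+MO3 side, and at stage 8 no point is filled.

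At stage 8, before most zygotic genes are active, none of the 26 members was called in MO1 against CoMO, MO2+MO3 against CoMO or MO1 against MO2+MO3. With limma and the block, 4, 3 and 1 members passed an unadjusted p under 0.05 in these contrasts, and 0 passed without it. Over all probe sets, 8.19% and 10.9% passed that threshold with the block in the comparisons with CoMO, and 3583 of 32539 passed it between the reagents. By adjusted p, 0.123%, 0.141% and 0.381% were called with the block and 0.00615%, 0.0% and 0.00615% without it. The largest sizes were 0.45, 0.48 and 0.41 on the log2 scale. The second admp.S probe set had the lowest blocked adjusted p against CoMO. It read -0.36 and 0.11 in MO1 embryos and -0.26 and -0.07 in MO2+MO3 embryos, against 0.07 and 0.57 in CoMO embryos. Both reagents lay below CoMO within each replicate, by -0.45 ± 0.12 for MO1 and -0.48 ± 0.12 for MO2+MO3, and the adjusted p were 0.338 and 0.215 (limma). For the zygotic antagonists chrd.1.S and cer1.S the lowest array of stage 8 had a level below 4, where the negative controls also lay.

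The level was read only as a power-of-2 interval, recovered from the rounding of the deposited numbers. In stage 8 embryos 16 of the 26 members had their lowest array below a log2 level of 4, and in stage 10.5 embryos 4 of 26 had. Over all probe sets the shares were 39.3% and 38.5%, and all 6 negative control probe sets lay below 4 at each stage. The bmp2 probe sets, bambi, the second admp.S and bmp4.S probe sets and those for both copies of bmp4 and szl came out at or above 4 at both stages. A recovered interval can come out too high, as 5.92% did in a simulated check, so these classes are not certain. For bmp2.S at stage 8 and chrd.1.S at stage 10.5 the interval was 16 to 32, above that of every other member. Both are likely too high, so the class of bmp2.S at stage 8 is in doubt.

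**Figure D4:**
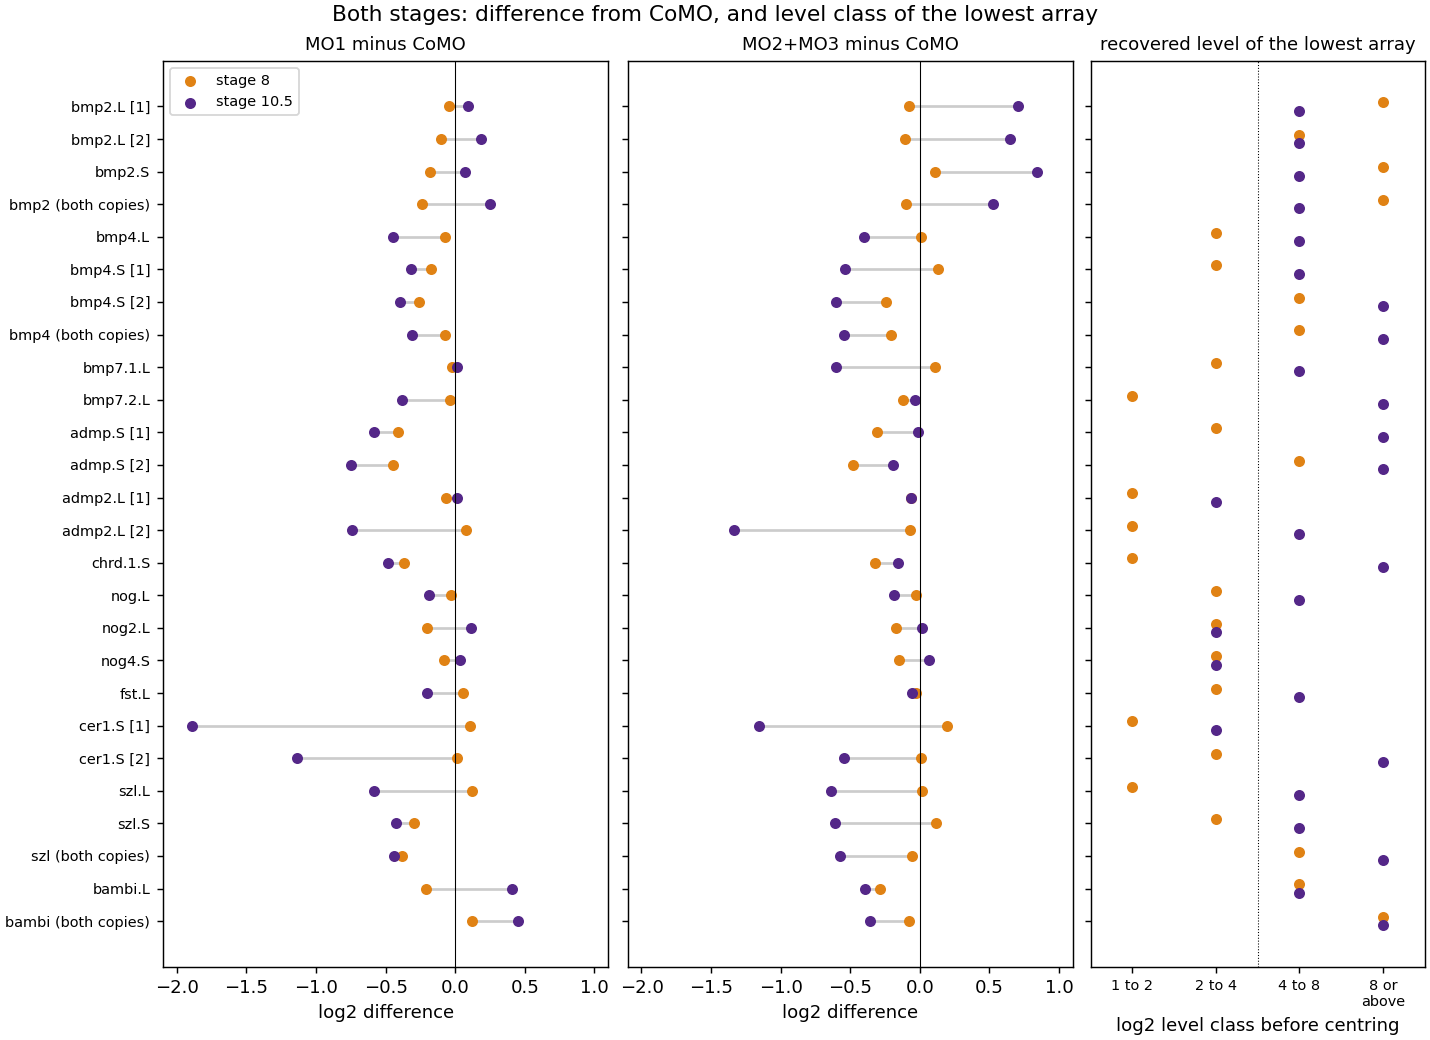
Log2 differences of MO1 (left) and MO2+MO3 (middle) from CoMO at stage 8 (orange) and stage 10.5 (purple) for the 26 member probe sets, and the recovered class of the log2 level of the lowest array (right), with a dotted line at 4. At stage 8 the differences lie between -0.48 and 0.19. At stage 10.5 both cer1.S probe sets lie farthest from 0 for MO1, and the second admp2.L and first cer1.S probe sets do for MO2+MO3.

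Whether a reagent acted differently at the 2 stages was tested directly. With the block 3 of 26 members were called for MO1, against 4.16% of all probe sets, and 3 of 26 for MO2+MO3, against 3.84%. All 6 were more negative at stage 10.5, as were 2.14% of all probe sets for MO1 and 1.38% for MO2+MO3. For MO1 they were both cer1.S probe sets and the second admp2.L probe set, and for MO2+MO3 the first cer1.S probe set, the second admp2.L probe set and bmp7.1.L. At stage 8 the lowest arrays of all these probe sets had levels below 4, where the negative controls also lay. An effect there could be too small to measure, so these calls cannot show that a reagent acted only at stage 10.5. For bmp2.S the MO2+MO3 effect was larger at stage 10.5 by 0.74 ± 0.18 and missed the threshold (limma adjusted p = 0.061 with the block). Without the block 0 of 26 were called by limma for either reagent, against 0.0215% and 0.00922% of all probe sets. At an unadjusted p under 0.05, 0 and 3 members passed without the block, against 4.74% and 4.55% of all probe sets.

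The genes that receive and transmit BMP signals were described from lists of the same pathway. Of 24 receptor and Smad probe sets, MO1 against CoMO at stage 10.5 gave 3 higher and 0 lower with the block, or 12.5% against 16.2% of all probe sets. They were the inhibitory Smads smad6.L, by 0.59 ± 0.09 (limma adjusted p = 0.00289 with the block and 0.178 without), smad7.L, by 0.39 ± 0.09 (0.0175 and 0.363), and smad6.S, by 0.39 ± 0.10 (0.0304 and 0.542). In MO2+MO3 against CoMO the same list gave 2 higher and 2 lower, or 16.7% against 16.8% of all probe sets. The lower ones were the receptor acvr2b.S at -0.61 ± 0.12 (0.0103 and 0.104) and smad1.L at -0.43 ± 0.09 (0.0153 and 0.19). The higher ones were the receptor acvr1.S at 0.35 ± 0.09 (0.0277 and 0.711) and smad9.S at 0.49 ± 0.14 (0.0469 and 0.873). MO1 minus MO2+MO3 in smad6.L was 0.63 ± 0.09 (0.00377 and 0.208). Without the block 0 of 24 were called by limma under either reagent, with 2 at an unadjusted p under 0.05 in each. Without it, 10.9% and 11.4% of all probe sets passed that threshold.

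Of 27 probe sets for other extracellular ligands and regulators, 1 was higher and 1 lower in MO1 embryos with the block, and 2 were higher and 1 lower in MO2+MO3 embryos. These are 7.41% and 11.1% of the list, below the 16.2% and 16.8% of all probe sets. The tolloid-like protease gene tll1.S was lower under both, by -0.49 ± 0.11 for MO1 (limma adjusted p = 0.0158 with the block and 0.801 without) and -0.55 ± 0.11 for MO2+MO3 (0.00932 and 0.715). The Nodal and BMP antagonist dand5.S was higher in MO1 embryos by 0.44 ± 0.12 (0.0476 and 0.499). The antagonists nbl1.L and grem1.L were higher in MO2+MO3 embryos by 0.46 ± 0.09 (0.00938 and 0.702) and 0.45 ± 0.13 (0.0478 and 0.716). Without the block 0 of 27 were called under either reagent by limma, and 0 passed an unadjusted p under 0.05. Without it, 10.9% and 11.4% of all probe sets passed that threshold.

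Among 24 probe sets of genes that respond to BMP on the ventral side, MO1 gave 9 lower and 1 higher with the block, and MO2+MO3 gave 6 lower and 1 higher. These are 41.7% and 29.2% of the list, beside 16.2% and 16.8% of all probe sets, and several are probe sets of 1 gene. Without the block 1 of 24 was called for each reagent, beside 0.916% and 0.907% of all probe sets (limma). At an unadjusted p under 0.05, 11 and 6 passed without it, beside 10.9% and 11.4% of all probe sets. The repressor gene ventx1.1.S was -0.74 ± 0.09 in MO1 embryos and was called in both fits (limma adjusted p = 0.00138 with the block and 0.0234 without). The homeobox gene evx1.L was -1.18 ± 0.19 in MO2+MO3 embryos and was called in both fits (0.00486 and 0.0482). Neither gene was called when only the 6 arrays of stage 10.5 were fitted without the block, where 0 of 32539 probe sets were called. The list's median was -0.32 for MO1 and -0.12 for MO2+MO3. The mean centred value of the list lay at -0.14 and -0.17 in MO1 embryos and at -0.02 in both MO2+MO3 arrays, against 0.10 and 0.17 in CoMO embryos. The probe sets of ventx1.1.L disagree, since 1 was lower and another higher under each reagent. Most of them had a lowest array with a level between 2 and 4 at stage 10.5, where the negative controls also lay. The rest came out at or above 4, and all of them enter the shares and means of the list.

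The organizer, the source of chordin, ADMP and noggin, was represented by 14 probe sets of 7 transcription factors. With the block 1 of 14 was lower in MO1 embryos, gsc.L by -0.46 ± 0.13 (limma adjusted p = 0.0447 with the block and 0.438 without), and 0 of 14 were called in MO2+MO3 embryos. The shares are 7.14% and 0.0%, below the 16.2% and 16.8% of all probe sets. At an unadjusted p under 0.05, 5 and 2 passed with the block, beside 29.0% and 29.5% of all probe sets. Without the block 0 of 14 were called by limma for either reagent. At that unadjusted threshold 1 and 0 passed without it, beside 10.9% and 11.4% of all probe sets. The mean centred value of the list was -0.24 and -0.15 in MO1 embryos and -0.01 and 0.04 in MO2+MO3 embryos, against 0.06 and 0.03 in CoMO embryos. Both MO1 arrays were thus the lowest, beside the lower admp.S, chrd.1.S and cer1.S of MO1 embryos, and the part of organizer tissue in those values was not tested.

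The probe sets with the most similar profile to a member over all 12 arrays were found by the root-mean-square difference of centred values among 15494 single-gene probe sets. For the first cer1.S probe set, whose own root-mean-square value was 0.755, the nearest were frzb.L at 0.224, myf5.L at 0.228 and foxa2.L at 0.286. For the first bmp2.L probe set they were its own overlapping partner at 0.0737, stmn1.S at 0.103 and gramd2b.L at 0.118. For bmp2.S they were both ckb.L probe sets, at 0.127 and 0.131, and arrdc1.S at 0.143. For the second bmp4.S probe set they were LOC100191026 at 0.151, wdr36.S at 0.152 and mindy4.L at 0.164. These distances include the replicate difference that all 3 injections share.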

How the data were processed

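The authors deposited 1 table of log2 values per probe set, which came from RMA according to the submitters' processing notes. No version is given, and the log base, which no source used here states, was taken as 2. The deposited values are centred, since the median over a stage's 6 arrays lies within 5e-07 of 0, a step that no header or label records. Per the labels' protocols, 100 ng of total RNA entered a 3' IVT labelling. Centring removed levels and differences in level between the stages. The number of arrays limits the precision.

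After 96 control probe sets were left out, 32539 were tested. The platform's annotation gives 1 gene for 15495, several for 279 and none for 16765, and 15384 of the probe sets with 1 gene were matched to a gene table of the Xenopus laevis assembly v10.1, which updated 2 symbols. No build is named for the array, so no coordinates are given. Suffixes _s_at, _x_at and _a_at mark probe sets that can hybridise to several transcripts, and copies of a gene may not be told apart.

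Models with a coefficient for each of the 6 groups were fitted to the 12 arrays with limma 3.58.1 in R 4.3.3, and eBayes tests, two-sided, were adjusted within each contrast by Benjamini-Hochberg over the 32539 probe sets. The planned main fit has no block. Arrays with the same number deviated from their groups alike, with correlations of 0.821 to 0.864 within a stage and of -0.0164 to 0.0244 between stages, so a fit that takes this number, separately per stage, as a block is given beside it. The pairing comes from the replicate numbers in the labels, which do not say what a number shares. The median residual SD was 0.104 with the block, on 4 degrees of freedom, and 0.175 without, on 6. The code was tested on simulated data. Rounding of the deposited single-precision values gave back a power-of-2 interval for the uncentred level of each probe set's lowest array per stage, which can come out too high, so a class is not certain for a given probe set.

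Named genes are the members, called genes of the pathway lists and the 3 nearest profiles of each of 4 members. The members and the lists were chosen with earlier results of these data known. The alternatives left out each array in turn, fitted 1 stage alone, kept only single-gene probe sets, changed the normalization or used robust eBayes, with and without the block where stated.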

Additional observations from a re-analysis of the deposited data

Results flagged for a closer look

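In 6 cases the effect of a reagent against CoMO differed between the stages by a test of that difference, in the fit with the replicate block, with limma adjusted p-values. Each value is the log2 difference at stage 10.5 minus that at stage 8, from 2 arrays per group.

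The MO1 effect on the first cer1.S probe set was lower at stage 10.5 by -1.997 (adjusted p = 0.00447), and that on the second by -1.15 (adjusted p = 0.0334). The MO2+MO3 effect on the first cer1.S probe set was lower by -1.35 (adjusted p = 0.0194). For the second admp2.L probe set the change was -0.82 (adjusted p = 0.0477) for MO1 and -1.26 (adjusted p = 0.0129) for MO2+MO3. For bmp7.1.L the MO2+MO3 effect changed by -0.71 (adjusted p = 0.0493).

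Without the block the adjusted p of each was 1.0. With the block and 1 array left out, the MO1 change of the first cer1.S probe set was called in 12 of 12 fits, with an adjusted p of up to 0.0375. The MO2+MO3 changes of the second admp2.L probe set and the first cer1.S probe set were called in 9 and 7 of 12. The admp2.L one was lost without replicate 2 of CoMO or MO2+MO3 at stage 8 or of CoMO at stage 10.5, with adjusted p up to 0.0841. The cer1.S one was lost without either CoMO array or MO2+MO3 replicate 2 of stage 8, or without replicate 1 of CoMO or MO2+MO3 at stage 10.5, with adjusted p up to 0.114. The MO1 change of the second cer1.S probe set was called only without replicate 2 of CoMO or MO1 at stage 10.5, 2 of 12 fits, and reached 0.131 otherwise. The MO1 change of admp2.L was called only without MO1 replicate 1 of stage 10.5, and the MO2+MO3 change of bmp7.1.L only without MO2+MO3 replicate 1 of stage 10.5, each 1 of 12, with adjusted p up to 0.216 and 0.199. At stage 8 the lowest arrays of cer1.S, the second admp2.L probe set and bmp7.1.L had levels below 4, so an effect there could be too small to measure.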

How the results depend on the processing

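The replicate block changed the counts most. Of 26 members it gave 10 calls in MO1 against CoMO at stage 10.5 and 10 in MO2+MO3 against CoMO, each against 0 without it, 9 in MO1 against MO2+MO3, against 1, and 3 for MO1 and 3 for MO2+MO3 in the change of the effect between the stages, against 0. With the block and only the 6 arrays of stage 10.5, the 3 contrasts of that stage gave 8, 11 and 8 calls. In both comparisons with CoMO these included members that were not called over the 12 arrays and are not named here. Over all 32539 probe sets these fits gave 4351, 4482 and 2319 calls. With the block, leaving out any 1 array lowered the number called over all probe sets in the 3 contrasts of stage 10.5. It also lowered that number in the change of the effect for either reagent. At stage 10.5 the number was lowest without an array of the groups compared. The member counts that follow were lowest in those fits too, so their fall cannot be read as particular to the members. With the block and 1 array left out, MO1 against CoMO gave 3 calls without MO1 replicate 1 of stage 10.5, 5 without MO1 replicate 2 or either CoMO array of that stage, and 9 otherwise. MO2+MO3 against CoMO gave 3 and 6 without MO2+MO3 replicates 2 and 1 of stage 10.5, 5 and 7 without CoMO replicates 1 and 2, and 9, 10, 12 or 15 otherwise. MO1 against MO2+MO3 gave 2 and 4 without MO2+MO3 replicates 2 and 1 of stage 10.5, 4 and 6 without MO1 replicates 1 and 2, and 8 or 11 otherwise. The change of the effect gave 1 to 2 calls for MO1 and 0 to 3 for MO2+MO3.

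Without the block, leaving out 1 array gave 0 calls in each contrast, so the single call of MO1 against MO2+MO3 was lost each time, and it was also lost when only the 6 arrays of the stage were fitted (0). Restricting to probe sets with 1 gene gave 0, since the called one is annotated to both copies. Robust eBayes, subtracting array medians and quantile normalization within stage left the counts of all 8 contrasts as they were. In 1 case a difference turned its sign: MO1 minus MO2+MO3 for the first cer1.S probe set was 0.13 without MO2+MO3 replicate 2 of stage 10.5 and without the block, in a range of -1.59 to 0.13 over the arrays left out. At stage 8 all settings gave 0 calls. The causes were not tested. At stage 8, 16 of 26 members had their lowest array below a level of 4, against 39.3% of all probe sets. The members read at or above 4 were not called there either.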
